A study of Mus musculus with 31 samples.

Results

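Antioxidant defence in the mouse hypothalamus was followed through 10 genes, taken by name from the 54532 genes of the counts table: Sod1, Sod2, Cat, Gpx1, Gpx4, Prdx1, Prdx3, Prdx5, Txn2 and Nfe2l2. Of these, 8 encode enzymes that remove superoxide or peroxides, Txn2 encodes mitochondrial thioredoxin, a small redox protein that feeds electrons to a peroxiredoxin, and Nfe2l2 encodes the transcription factor Nrf2, which is no enzyme. All mice were of the inbred strain C57BL/6J, and the hypothalamus was taken for RNA sequencing at 4 months of age. Female offspring of dams that ate an obesogenic diet, high in fat and sugar, through pregnancy and lactation (OB females) gave 7 libraries, and female offspring of dams on a control diet (CON females) gave 8. Male offspring gave 8 libraries of the obesogenic dams (OB males) and 8 of the control dams (CON males). Every offspring, CON animals included, was weaned onto chow at postnatal day 21 and was itself put on the obesogenic diet from 3 months of age, for 4 weeks, so no group shows the maternal diet without the later one. Neither animals nor litters are named in the labels. The p-values therefore rest on variation among libraries, some of which could come from littermates.

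Superoxide leaks from the respiratory chain and is converted to hydrogen peroxide by superoxide dismutases, Sod1 in the cytosol and Sod2 in the mitochondrial matrix. Catalase, the glutathione peroxidases and the peroxiredoxins then remove the peroxide, the peroxiredoxins with electrons from thioredoxins. Nrf2 is kept low by Keap1 in unstressed cells and, when stabilised by oxidants, switches on many antioxidant genes through antioxidant response elements, a response best known in the brain from astrocytes.

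The sequence upstream of the members is shown for the pair that varied together most closely, Sod1 and Prdx5, and for members whose promoter window held the core of the antioxidant response element. The RefSeq windows (build GRCm38.p6) cover the 250 bases before a start site. The core, TGACNNNGC, was searched on both strands, as was GGGCGG, the GC box bound by Sp1-type factors, counting overlapping copies. Nfe2l2 lies on the minus strand (chr2:75704664-75704913), Prdx1 on the plus strand (chr4:116685349-116685598), Sod1 on the plus strand (chr16:90220512-90220761) and Prdx5 on the minus strand (chr19:6910107-6910356). Capitals mark either motif, and each sequence reads 5′ to 3′ toward the gene:
Sod1: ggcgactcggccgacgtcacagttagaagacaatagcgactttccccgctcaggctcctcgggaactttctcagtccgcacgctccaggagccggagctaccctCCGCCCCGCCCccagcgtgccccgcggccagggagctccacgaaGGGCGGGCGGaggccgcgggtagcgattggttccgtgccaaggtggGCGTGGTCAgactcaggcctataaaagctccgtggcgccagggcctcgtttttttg
Prdx5: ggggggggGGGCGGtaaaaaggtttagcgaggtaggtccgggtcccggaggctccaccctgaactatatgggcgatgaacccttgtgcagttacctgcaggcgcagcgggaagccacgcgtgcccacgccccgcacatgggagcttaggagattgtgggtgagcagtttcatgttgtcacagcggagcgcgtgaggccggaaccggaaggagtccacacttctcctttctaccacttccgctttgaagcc
Prdx1: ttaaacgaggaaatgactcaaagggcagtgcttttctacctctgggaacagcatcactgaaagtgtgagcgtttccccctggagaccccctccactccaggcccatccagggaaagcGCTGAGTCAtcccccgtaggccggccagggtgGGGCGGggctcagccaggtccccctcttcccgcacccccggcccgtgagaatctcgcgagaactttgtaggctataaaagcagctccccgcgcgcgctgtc
Nfe2l2: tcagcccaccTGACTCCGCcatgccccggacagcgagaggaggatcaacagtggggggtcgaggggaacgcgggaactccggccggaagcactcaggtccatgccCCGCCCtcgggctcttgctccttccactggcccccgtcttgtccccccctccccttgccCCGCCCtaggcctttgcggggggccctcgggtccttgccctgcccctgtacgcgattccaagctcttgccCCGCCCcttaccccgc
The core stood in the windows of 3 of 10 members, at 240 bases before the start of Nfe2l2 as TGACTCCGC, at 133 bases before that of Prdx1 as GCTGAGTCA and at 56 bases before that of Sod1 as GCGTGGTCA, the last pair on the opposite strand. It stood in 10.2% of 32851 mouse promoter windows. The GC box stood in a window of 9 of 10 members, all but Gpx1, against 32.7% of all windows. Windows precede RefSeq starts, which can lie inside the annotated gene. The only Gpx1 window, chr9:108338830-108339079 with 42% GC, runs past the annotated gene start at 108338903, so sequence farther upstream was not searched. The Sod2 window, chr17:13007589-13007838, lies inside the gene, which starts at 13006846. The members had 13 windows in all, with a GC content of 42% to 70.4%, against a median of 52.4% over all windows. Gpx4 had 4 of these windows, which gave it more chances of a match than a gene with 1. A match is letters in a window, not a bound site.

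The libraries held 23118626 to 38547288 read pairs, of which a member drew between 511 (Nfe2l2) and 17263 pairs (Sod1). All 10 members were among the 18743 genes tested. Several libraries stood apart from the others. The median correlation with the other libraries was 0.936 for OB female 3, 0.910 for CON female 5 and 0.914 for CON male 6, against 0.967 to 0.978 for the 26 libraries below. In OB female 3 long genes ran high, by 0.20 log2 CPM per doubling of gene length relative to the mean library, and in CON male 6 they ran low, by -0.20, against -0.10 to 0.076 in the 26 libraries. CON female 5 summed to 143 CPM over 8 hypothalamic neuron genes, against 957 CPM or more in every OB library and 1098 CPM or more in every CON male library, and to 1839 CPM over 5 olfactory bulb genes, against medians of 250.2 to 279 CPM in the 4 groups. The lowest level of the hypothalamic genes Agrp and Sim1 over the libraries was 0 CPM. In addition, the library labelled CON female 7 had 0.31 CPM of Xist with 139 CPM from Y-linked genes, and the library labelled CON male 7 had 575 CPM of Xist with 0 CPM from Y-linked genes, both against their labels. Fold changes and correlations are therefore given over 31 libraries and, for most, also over the 26 left without these 5, while levels are over 31. In a tissue extract, fewer cells of a type and less RNA per cell cannot be told apart.

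Gpx4, which reduces lipid peroxides in membranes, was the most abundant member per unit of transcript length. Its median over 31 libraries was 155 FPKM, and it exceeded the next gene in 31 of 31 libraries. Prdx5 followed at 94.1 FPKM and Prdx1 at 84.8 FPKM, with Prdx5 above Prdx1 in 29 of 31 libraries. Sod1 had a median of 62.9 FPKM and Gpx1 62.1 FPKM. These neighbours were not separated, as Sod1 was higher in only 18 of 31 libraries. Prdx3 had 55.1 FPKM, below Gpx1 in 27 of 31 libraries. Txn2 had 29.04 FPKM and Cat 28.2 FPKM, again unseparated, with Txn2 higher in 18 of 31. Sod2 had 15.8 FPKM and Nfe2l2, the only transcription factor, was lowest at 6.63 FPKM. The lengths behind these levels were all annotated exons of a gene merged, 10008 bases for Sod2 and 3970 bases for Sod1, so genes with long minor transcripts are understated.

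The 10 genes lie at these positions of the mouse genome (GENCODE annotation, GRCm38): Sod1 at chr16:90220754-90226329, Sod2 at chr17:13006846-13040063, Cat at chr2:103453849-103485160, Gpx1 at chr9:108338903-108340343 and Gpx4 at chr10:80047166-80056439. Prdx1 lies at chr4:116685544-116700822, Txn2 at chr15:77915047-77929006 and Nfe2l2 at chr2:75675513-75704641, on the same chromosome as Cat. Prdx3 at chr19:60864051-60874556 and Prdx5 at chr19:6906697-6910106 share a chromosome too. For 3 members some reads are uncertain because near-identical copies exist elsewhere in the genome. Gpx4 shared 99.7% identity over 762 bases with Gpx4-ps2 and had 1 further copy, which together drew 28340 pairs over all libraries, against 263281 pairs on Gpx4. Prdx1 had 3 pseudogene copies with 2313 pairs, against 247748 on the gene, and Sod1 had 1, Gm8566, with 6092 pairs, against 255530 on the gene. Reads that matched gene and copy alike could not be assigned. Prdx5 overlaps Trmt112 on the opposite strand over 409 of its 2139 exon bases. The counting used strand.

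**Figure D1:**
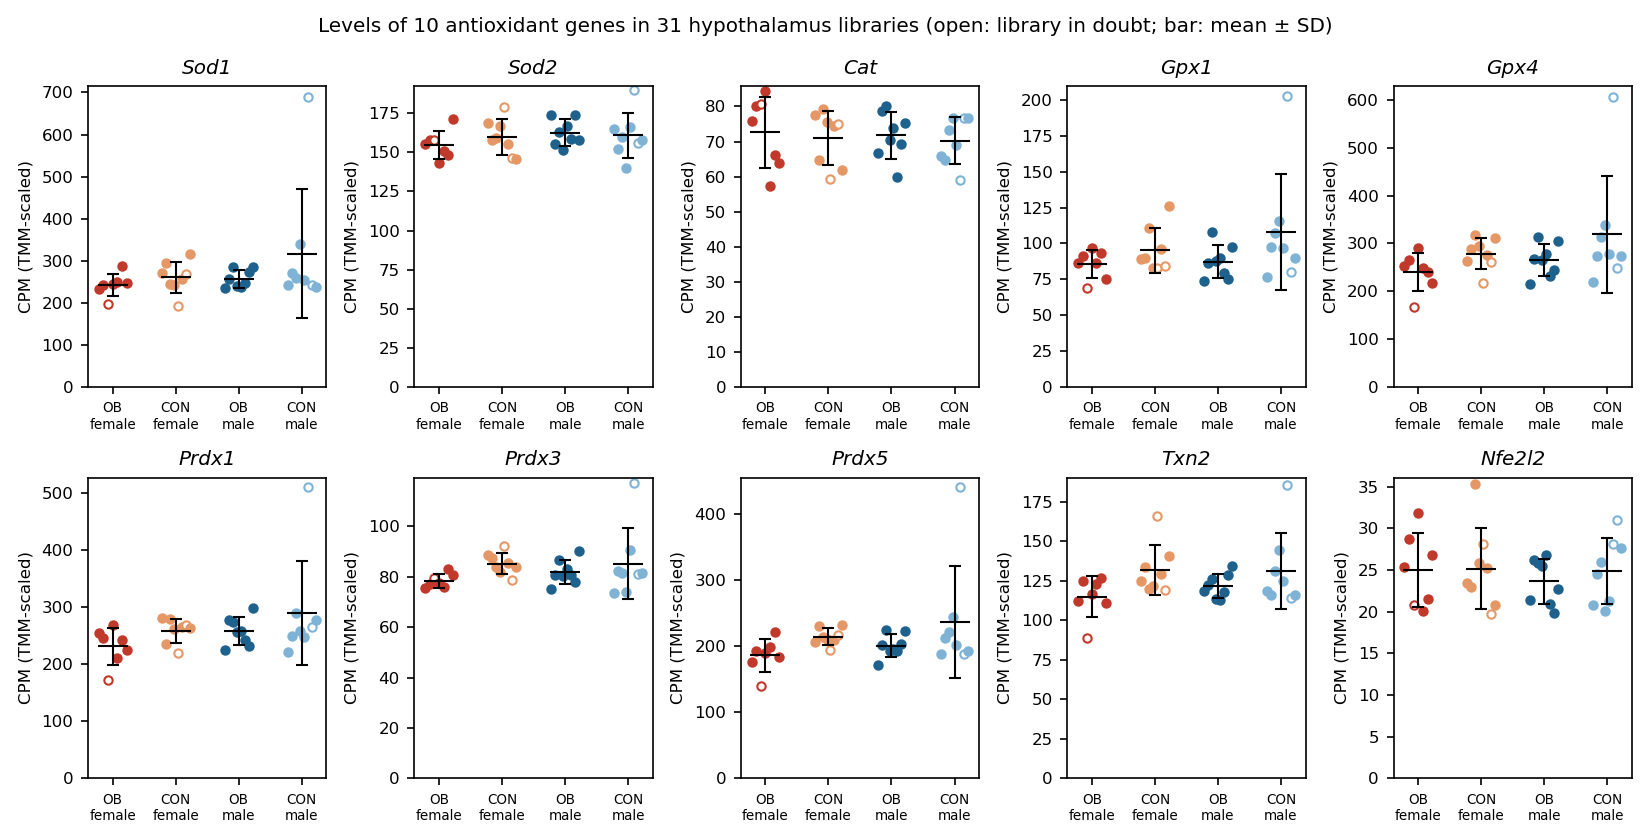
Normalised read count (CPM after TMM scaling, linear axis from 0) of the 10 members in each library, by group, with OB left of CON in each sex; points are libraries, open points the 5 libraries in doubt, bars the mean ± SD. Groups overlap for every member, and CON male 6 sits far above its group for Sod1 (689 CPM), Gpx4 (607 CPM), Prdx1 (510.1 CPM) and Prdx5 (439.6 CPM).

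For Sod1, the cytosolic copper-zinc superoxide dismutase, the lowest, median and highest normalised counts were 196, 244.9 and 287 CPM in OB females, against 193, 262.3 and 316 CPM in CON females. In males they were 235, 251.9 and 286 CPM in OB, against 238, 256.7 and 689 CPM in CON. The male medians nearly coincided, and the highest CON male value belonged to CON male 6, at 2.62 times the mean of the other CON males. OB minus CON was -0.11 ± 0.16 in females (log2 fold change ± SE, edgeR adjusted p = 0.864) and -0.30 ± 0.15 in males (adjusted p = 0.940). Over 26 libraries the difference was -0.11 in females and -0.055 in males (95% interval in males -0.21 to 0.10). For Sod2, the manganese enzyme of the mitochondrial matrix, OB females had 143, 155 and 171 CPM, against 146, 158 and 179 CPM in CON females. OB males had 151, 161 and 174 CPM, against 140.0, 159 and 190.0 CPM in CON males. Sod2 was among the steadiest genes measured: its SD within groups was 0.098 on the log2 scale, lower than in all but 0.76% of the genes tested, whose median SD was 0.33. Prdx3 followed among the members, lower than all but 3.38%. Over 26 libraries Prdx3 had the lower SD, 0.079 (all but 0.86%), against 0.082 for Sod2 (all but 1.24%). Sod2 drew 3563 to 6612 pairs per library, and it was not compared with genes of similar count alone. The difference between OB and CON was -0.045 ± 0.063 in females (adjusted p = 0.847) and 0.016 ± 0.060 in males (adjusted p = 0.977), with 95% intervals that ran between -0.17 and 0.14 over both sexes. Over 26 libraries it was -0.042 in females and 0.053 in males.

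Cat encodes catalase, which breaks down hydrogen peroxide in peroxisomes. Its lowest, median and highest counts were 57.2, 75.8 and 84.5 CPM in OB females, against 59.3, 74.6 and 79.2 CPM in CON females. In males they were 59.8, 72.1 and 80.1 CPM in OB, against 58.9, 71.2 and 76.8 CPM in CON. Cat was the one member whose estimate lay above 0 in both sexes, at 0.032 ± 0.086 in females and 0.030 ± 0.083 in males (edgeR adjusted p = 0.928 and 0.969), and over 26 libraries the female value was -0.021. CON male 6, which held the highest CON male value of 8 members, held the lowest for Cat.

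The glutathione peroxidases Gpx1, which reduces hydrogen peroxide in cytosol and mitochondria, and Gpx4 both had lower means in OB than in CON animals of either sex. Gpx1 had 69.0, 86.7 and 96.5 CPM as lowest, median and highest in OB females, against 82.5, 89.4 and 126 CPM in CON females. It had 73.5, 87.0 and 108 CPM in OB males, against 76.3, 96.9 and 203 CPM in CON males. All 8 OB males lay below the CON male mean of 108 CPM, but that mean contains CON male 6 and the groups overlapped. Gpx4 had 166, 249.6 and 290.2 CPM in OB females, against 217, 282 and 318 CPM in CON females. It had 215, 266.6 and 313 CPM in OB males, against 219.7, 276 and 607 CPM in CON males. In females 6 of 7 OB libraries lay below the CON mean of 279 CPM. Gpx1 differed by -0.16 ± 0.14 in females (adjusted p = 0.759) and by -0.31 ± 0.14 in males (unadjusted p = 0.0316, adjusted p = 0.940), and over 26 libraries by -0.17 in females and -0.16 in males. Gpx4 differed by -0.21 ± 0.15 in females (adjusted p = 0.691) and -0.27 ± 0.14 in males (adjusted p = 0.940). Over 26 libraries it differed by -0.21 ± 0.092 in females (unadjusted p = 0.0305, adjusted p = 0.556) and by -0.094 ± 0.086 in males.

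The peroxiredoxins are thiol peroxidases, Prdx1 in the cytosol, Prdx3 in mitochondria, and Prdx5 in mitochondria, peroxisomes and cytosol. Prdx5 had 140.0, 190.0 and 221 CPM in OB females, against 194, 212 and 232 CPM in CON females. It had 171, 199 and 224 CPM in OB males, against 187, 207 and 439.6 CPM in CON males. The OB median lay below the CON median in both sexes, and the ranges of the groups overlapped. Prdx1 had 172, 242 and 268.2 CPM in OB females, against 219.9, 264.1 and 281 CPM in CON females. It had 225, 257.1 and 298 CPM in OB males, against 222, 261.5 and 510.1 CPM in CON males. Prdx3 varied least of the peroxiredoxins. It had 75.7, 77.7 and 83.1 CPM in OB females, all 7 below the CON female mean of 85.2 CPM, against 78.6, 84.7 and 92.1 CPM in CON females. It had 75.2, 80.6 and 90.2 CPM in OB males, against 73.6, 81.6 and 117 CPM in CON males. In females the log2 differences were -0.20 ± 0.13 for Prdx5, -0.16 ± 0.12 for Prdx1 and -0.12 ± 0.073 for Prdx3 (edgeR adjusted p = 0.662, 0.709 and 0.662). Over 26 libraries the female differences were -0.16, -0.13 and -0.12, with unadjusted p = 0.0316 for Prdx5 and 0.0477 for Prdx3 and adjusted p = 0.557 and 0.588. In males they were -0.24 ± 0.12, -0.17 ± 0.12 and -0.058 ± 0.070 over 31 libraries, each with adjusted p = 0.940. Over 26 libraries they were -0.068, 0.00090 and 0.023.

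Txn2 had 88.8, 117 and 127 CPM as lowest, median and highest in OB females, against 119, 127 and 166 CPM in CON females. All 7 OB females lay below the CON female mean of 132 CPM. The lowest OB value came from OB female 3 and the highest CON value from CON female 5. In males Txn2 had 113, 120.4 and 134 CPM in OB, against 114, 122 and 185 CPM in CON. The female difference was -0.20 ± 0.093 (unadjusted p = 0.0405, edgeR adjusted p = 0.601) and the male one -0.11 ± 0.090 (adjusted p = 0.940). Without the 5 libraries in doubt the female difference was -0.11 ± 0.065 (unadjusted p = 0.112) and the male one -0.041 ± 0.060. The Nfe2l2 groups overlapped over most of their range. OB females had 20.1, 25.3 and 31.8 CPM, against 19.8, 24.3 and 35.3 CPM in CON females. OB males had 19.8, 24.1 and 26.8 CPM, against 20.1, 25.3 and 30.99 CPM in CON males. Its log2 difference was -0.0099 ± 0.12 in females (adjusted p = 0.986) and -0.076 ± 0.12 in males (adjusted p = 0.944). These are transcript levels, and Nrf2 activity is set largely by the stability of the protein, which was not measured here.

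Taking each comparison over all genes, edgeR called 0 of 10 members at an adjusted p of 0.05 for maternal diet in females, where 0% of the 18743 genes passed, and 0 of 10 in males, where 0% passed. At an unadjusted p under 0.05, 1 of 10 members was lower in OB females (Txn2), against 4.75% of all genes (890 genes), and none was higher, against 3.37% (632 genes). In OB males 1 of 10 was lower (Gpx1), against 2.54% of all genes (477 genes), and none was higher, against 0.907%. The sign of the estimate was negative for 9 of 10 members in females, against 52.5% of all genes, and for 8 of 10 in males, against 49.9%. The median log2 fold change over the members was -0.14 in both sexes, against -0.013 in females and 0.00038 in males over all genes. Over 26 libraries the female figures were 9 of 10 with a median of -0.12, and the male ones 5 of 10 with a median of -0.020, against 51.1% and 48% of all genes. At an unadjusted p under 0.05 there were then 3 of 10 lower in OB females, against 4.53% of all genes, and 0 of 10 in either direction in males, against 2.7%. The members also varied together across libraries, so these signs are not separate observations. DESeq2 called 6 genes in females and 1 in males, none of them a member.

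Averaged over the sexes, 9 of 10 estimates lay below 0, against 52.5% of all genes, and 8 of 10 did over 26 libraries, against 50.7%. At the single-gene level 4 of 10 members were lower in OB offspring at an unadjusted p under 0.05, against 6.37% of all genes, and 0 of 10 passed the adjusted threshold, as did 0% of all genes. DESeq2 called 5 genes, again no member. The 4 were Gpx4 at -0.24 ± 0.10 (unadjusted p = 0.0239), Gpx1 at -0.23 ± 0.10 (unadjusted p = 0.0252), Prdx5 at -0.22 ± 0.088 (unadjusted p = 0.0187) and Txn2 at -0.15 ± 0.065 (unadjusted p = 0.0232), each with an edgeR adjusted p of 0.464. Over 26 libraries 3 of 10 were lower, against 4.18% of all genes. These were Gpx1 at -0.16 ± 0.070 (unadjusted p = 0.0266), Gpx4 at -0.15 ± 0.063 (unadjusted p = 0.0224) and Prdx5 at -0.11 ± 0.049 (unadjusted p = 0.0265), each with an adjusted p of 0.599, while Txn2 was at -0.073 ± 0.044 (unadjusted p = 0.108). Each of the 4 estimates was smaller without the 5 libraries than with them. In the same libraries the summed level of 18 respiratory complex I genes was 1578 to 2251 CPM in OB females, with a median of 2088, against 2189 to 2350 CPM in CON females, with a median of 2286. In males it was 1847 to 2462 CPM in OB, with a median of 2180.5, against 1966 to 4765 CPM in CON, with a median of 2232. The lowest OB female sum was that of OB female 3. The lowest and highest CON male sums were those of CON male 7 and CON male 6. All of these are among the 5 libraries in doubt, and the sums were not taken over 26 libraries. The part of the complex I level in the members' differences was not tested.

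**Figure D2:**
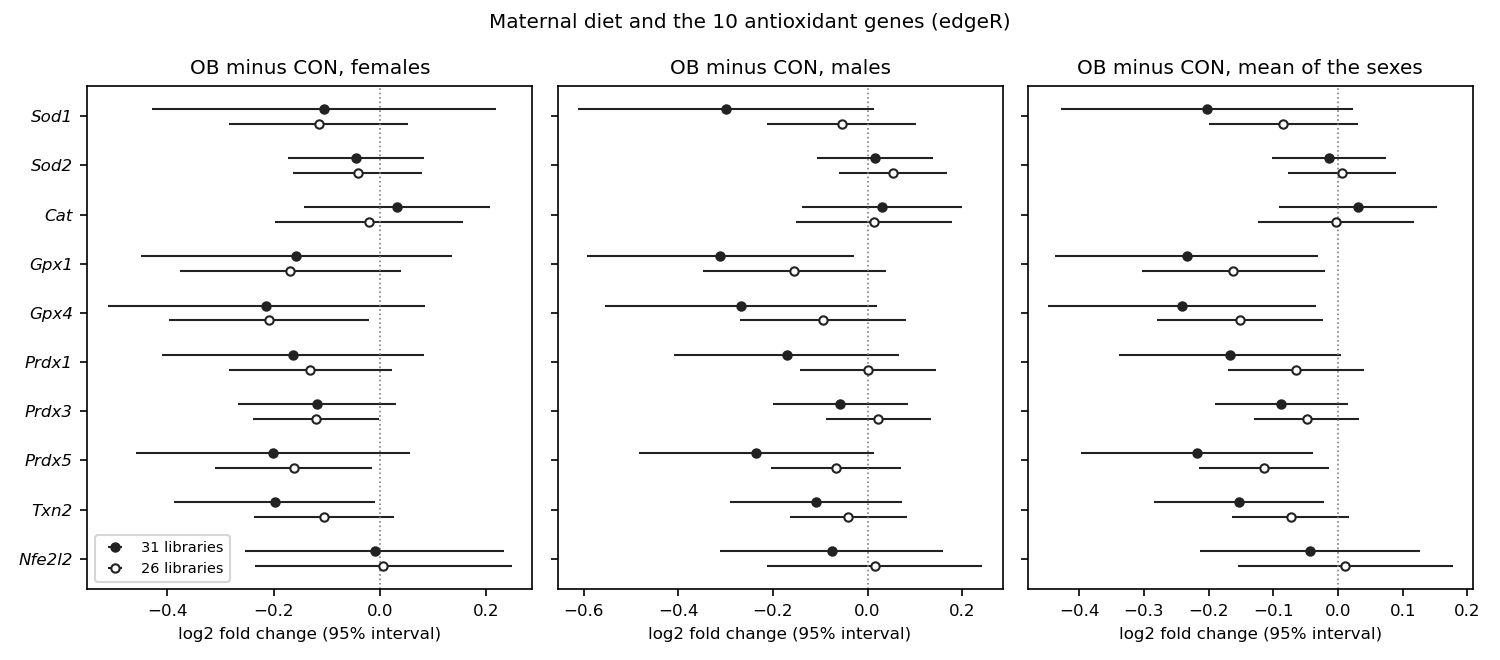
Log2 fold change, OB minus CON, of each member in females, in males and averaged over the sexes, with 95% intervals from the edgeR fit; filled points use 31 libraries and open points 26. Most points lie left of 0, the male points of Sod1, Gpx1, Gpx4, Prdx5 and Prdx1 move toward 0 when the 5 libraries are left out, and Sod2, Cat and Nfe2l2 lie near 0 throughout.

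Whether the diet effect differed between daughters and sons was tested as an interaction, the female difference minus the male one. No member was called and none had an unadjusted p under 0.05 (0 of 10), against 3.62% of all genes at an unadjusted p under 0.05 and 0% at the adjusted one. DESeq2 called 6 genes, none a member. Of the estimates 3 of 10 lay below 0, against 49% of all genes, and they ran between -0.089 for Txn2 and 0.19 for Sod1, each with an edgeR adjusted p of 0.9996. The interval for Sod1, -0.26 to 0.64, is wide. Over 26 libraries 10 of 10 lay below 0, against 51.8% of all genes, and ran between -0.14 for Prdx3 and -0.0086 for Nfe2l2. Females minus males, averaged over the diets, gave 0 of 10 members at the adjusted threshold, against 0.0267% of all genes (5 genes), and 0 of 10 at an unadjusted p under 0.05, against 4.13%. The 8 members with lower estimates in females included Sod1 at -0.18 ± 0.11 and Gpx4 at -0.17 ± 0.10 (adjusted p = 0.952 for both), against 49.9% of all genes. Over 26 libraries, where 0.102% of all genes and no member were called, these were -0.0095 and -0.012, and 5 of 10 members lay below 0, against 51.7% of all genes.

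Within groups the members did not vary independently. After the group means were removed from the log2 CPM, 38 of the 45 pairs of members had a positive Pearson correlation over 31 libraries, with a median r of 0.43, and 19 passed a permutation test within groups at an adjusted p of 0.05 over the 45 pairs. Over 26 libraries 33 pairs were positive, the median r was 0.26 and 20 pairs passed, of which 11 passed in both. The pairs that passed include negative ones, of Sod2 or Nfe2l2 over 26 libraries and of Cat with Txn2 over 31. By Spearman rank correlation (rho) 14 pairs passed over 31 libraries and 15 over 26. A median r of a member with all 18742 other genes lay between -0.043 and 0.032 over 31 libraries, depending on the member. The share of all gene pairs that passes was not computed. Ranked among all genes over 26 libraries, a member's r with the other members had a median percentile of 92.2 for Gpx1 and 90.1 for Gpx4. It was 87.5 for Prdx1, 78.5 for Prdx5, 77.9 for Prdx3 and 63.6 for Sod1. For Nfe2l2, Txn2, Cat and Sod2 it was 60.5, 59.3, 57.6 and 11.8. Over 31 libraries it lay between 16.2 for Cat and 95.9 for Prdx3.

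The tightest pair was Sod1 and Prdx5, whose promoter windows are shown above, with r = 0.95 and rho = 0.91 over 31 libraries (permutation p = 1e-05 for both, the smallest these permutations can give; adjusted p = 9e-05 and 0.00015). Leaving out the 2 libraries farthest from the median Sod1 level gave r = 0.90, and the 26 libraries gave r = 0.86. Gpx1 and Gpx4 had r = 0.93 and rho = 0.89 (adjusted p = 9e-05 and 0.00015), 0.84 without the 2 farthest libraries and 0.85 over 26. Gpx4 with Prdx5, Gpx4 with Prdx1 and Gpx1 with Prdx5 had r of 0.90, 0.90 and 0.88 over 31 libraries, rho of 0.78, 0.75 and 0.77, and r of 0.68, 0.67 and 0.69 over 26, each passing in both sets. Further close pairs that passed in both sets were Prdx5 with Txn2, at 0.78 over 31 libraries and 0.77 over 26, Gpx1 with Prdx1, at 0.82 and 0.59, Sod1 with Gpx1, at 0.84 and 0.57, and Sod1 with Txn2, at 0.67 and 0.83. For others the 26 libraries gave a much lower r. Prdx1 with Prdx5 had r = 0.83 over 31 libraries (adjusted p = 0.00378) and 0.29 over 26 (adjusted p = 0.291), and Sod1 with Prdx1 had 0.78 (adjusted p = 0.00802) and 0.081 (adjusted p = 0.795).

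Cat stood outside this group over 31 libraries. Its correlations with Txn2, Sod2 and Prdx5 were the lowest of the 45, at -0.44, -0.32 and -0.29, of which only the first passed (adjusted p = 0.0441, with rho = -0.28 and adjusted p = 0.224). Over 26 libraries they were -0.015, -0.076 and 0.041. Cat, Prdx1 and Nfe2l2 then correlated with each other, with r = 0.75 for Cat and Prdx1 (adjusted p = 0.00036), 0.68 for Cat and Nfe2l2 (adjusted p = 0.00337) and 0.59 for Prdx1 and Nfe2l2 (adjusted p = 0.00922). Over 31 libraries these were 0.068, 0.37 and 0.43 (adjusted p = 0.814, 0.117 and 0.0436). Over 26 libraries Prdx1 also had r = 0.67 with Gpx4 and 0.59 with Gpx1. Sod2 ran against Gpx1, Gpx4, Prdx5 and Sod1 over 26 libraries, at -0.66, -0.57, -0.54 and -0.51 (adjusted p = 0.00296, 0.0166, 0.0278 and 0.039), where over 31 they were 0.027, 0.047, 0.18 and 0.15. Of the relations of Prdx1, those with Gpx4, Gpx1 and Nfe2l2 passed in both sets, and those with Sod1, Prdx5 and Cat passed in 1 set only.

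**Figure D3:**
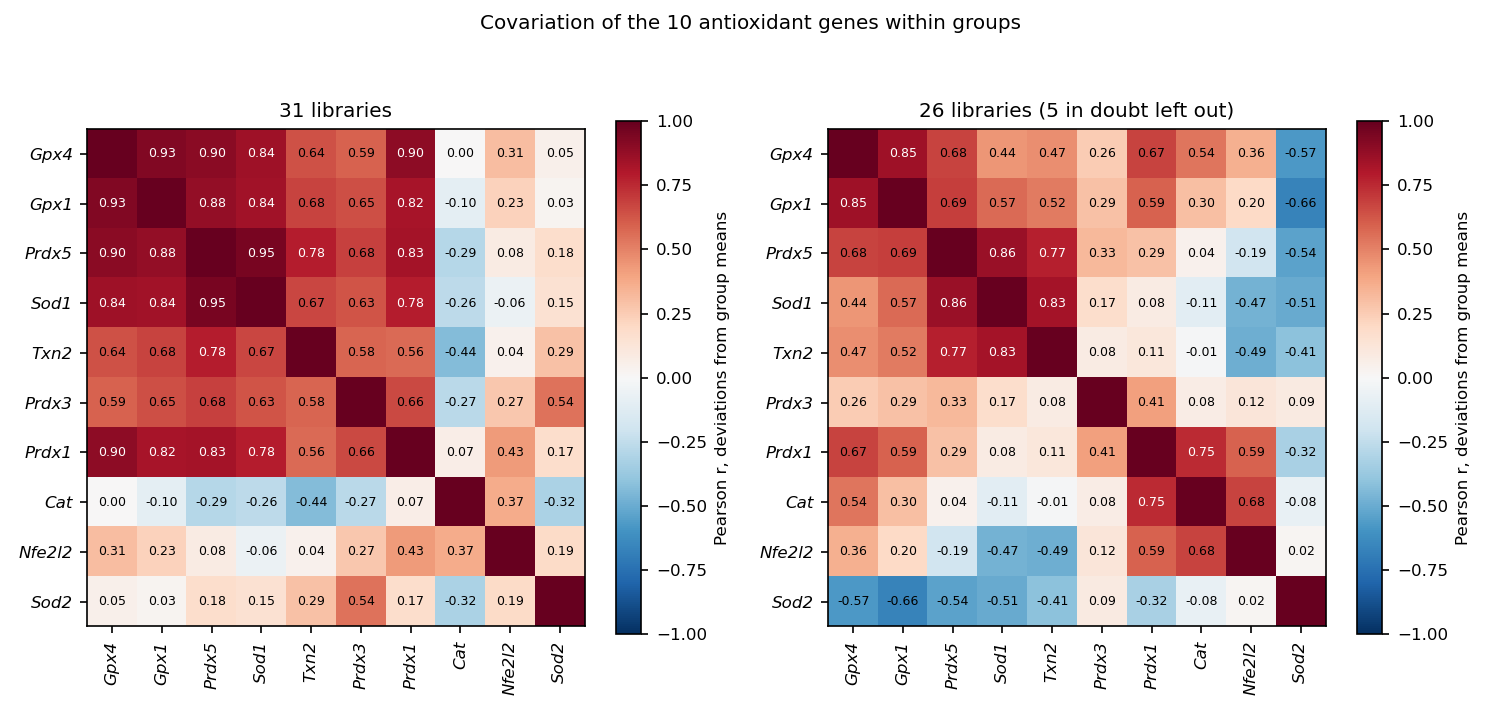
Pearson r between members, computed on log2 CPM as deviations from group means, over 31 libraries (left) and 26 (right); red is positive, blue negative, and each square prints its r. The block of Gpx4, Gpx1, Prdx5 and Sod1 is red in both panels, at 0.84 to 0.95 (left) and 0.44 to 0.86 (right). Most of the row of Sod2 is blue on the right, but its r with Prdx3 (0.091) and Nfe2l2 (0.018) stays positive. Cat, Prdx1 and Nfe2l2 gain with each other on the right, while Prdx1 falls with Sod1, Prdx5, Txn2, Gpx4, Gpx1 and Prdx3. Sod1 with Gpx4, the lowest r of the block on the right, did not pass there (permutation adjusted p = 0.0924).

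Each member was also set against 13 features of the libraries: the mean level of complex I genes, the gene length slope and the mean level of 11 lists of cell type or region markers, which made 130 relations adjusted together. The mean of the 18 complex I genes, which encode subunits of the first respiratory enzyme, went with 6 members over 31 libraries. Its r was 0.96 with Prdx5, 0.92 with Gpx4, 0.89 with Sod1, Prdx1 and Gpx1, and 0.79 with Txn2 (adjusted p between 0.000144 and 0.0005). Without the 2 farthest libraries, CON male 6 and OB female 3, these were 0.87, 0.81, 0.69, 0.67, 0.77 and 0.57, and over 26 libraries 0.82, 0.85, 0.67, 0.66, 0.75 and 0.58, all past the threshold. The gene length slope ran against the same 6 members, with r = -0.90 for Gpx4, -0.86 for Prdx5, -0.84 for Prdx1 and Gpx1, -0.83 for Sod1 and -0.63 for Txn2 (adjusted p = 0.000144 for the first 5 and 0.0196 for Txn2). Without the 2 farthest libraries the r of Txn2 was -0.28 and the others lay between -0.73 and -0.85. Over 26 libraries it still ran against them, at -0.79, -0.77, -0.63, -0.81, -0.74 and -0.65, and ran with Sod2 at 0.67 (adjusted p = 0.00633), which over 31 libraries was 0.14 (adjusted p = 0.629). Sod2 ran against the complex I mean over 26 libraries at -0.58 (adjusted p = 0.0178), where over 31 it was 0.23 (adjusted p = 0.452). Complex I level and length slope share libraries and were not separated here. None of the 13 features was set against all genes, so the share of genes that pass with each is not known. The relations with them are therefore not shown to be particular to the members.

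Nfe2l2 and Cat went with markers of astrocytes in both sets of libraries, and also with those of other glia. The mean of 5 astrocyte genes had r = 0.66 and rho = 0.61 with Nfe2l2 (adjusted p = 0.00104 and 0.00439), 0.58 without the 2 farthest libraries and 0.81 over 26 (adjusted p = 0.000433). With Cat it had r = 0.63 and rho = 0.70 (adjusted p = 0.00202 and 0.000743), 0.60 without the 2 farthest and 0.66 over 26. The summed level of the 5 genes was 2910 to 4311 CPM in OB females, against 2770.2 to 4183 CPM in CON females, and 2683 to 4102 CPM in OB males, against 3107 to 4417 CPM in CON males, with none of the 5 at 0 in any library. Microglial markers had r = 0.53 with Nfe2l2 over 31 libraries (adjusted p = 0.0158) and 0.69 over 26 (adjusted p = 0.00295), and with Cat 0.41 (adjusted p = 0.103) and 0.66 (adjusted p = 0.00788). Sod1 and Txn2 ran against astrocyte markers over 26 libraries, at -0.52 and -0.54 (adjusted p = 0.038 and 0.0299), and had -0.23 and -0.38 over 31, where neither passed. Markers of neurons ran against Prdx1 at -0.70, Nfe2l2 at -0.70 and Cat at -0.66 over 26 libraries (adjusted p = 0.00234, 0.004 and 0.0118). Over 31 libraries these were -0.48, -0.29 and -0.56 (adjusted p = 0.000836, 0.288 and 0.00538). Prdx1 had r = 0.57 with astrocyte and 0.62 with microglial markers over 26 libraries (adjusted p = 0.0255 and 0.011), and 0.25 and 0.35 over 31 (adjusted p = 0.257 and 0.136). Oligodendrocyte markers had r = 0.77 with Gpx4 and 0.74 with Prdx1 over 31 libraries, and 0.57 and 0.51 over 26. Gpx1, Sod1 and Prdx5 also passed over 31 libraries, at 0.61, 0.61 and 0.60, but had 0.30, -0.14 and 0.097 over 26, where Cat had the highest r, 0.62 (adjusted p = 0.011; 0.28 over 31). Red blood cell genes had r of 0.66, 0.65 and 0.58 with Gpx4, Prdx1 and Gpx1 over 31 libraries, and of 0.42, 0.44 and 0.34 over 26, where none passed. The remaining lists passed with some members too. Markers of hypothalamic neurons passed with 4 members over 31 libraries and 3 over 26. Those of ependyma passed with 1 and 2, olfactory bulb with 1 and 1, and endothelium with 1 and 0. Choroid plexus and meningeal fibroblasts each passed with 0 and 1.

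**Figure D4:**
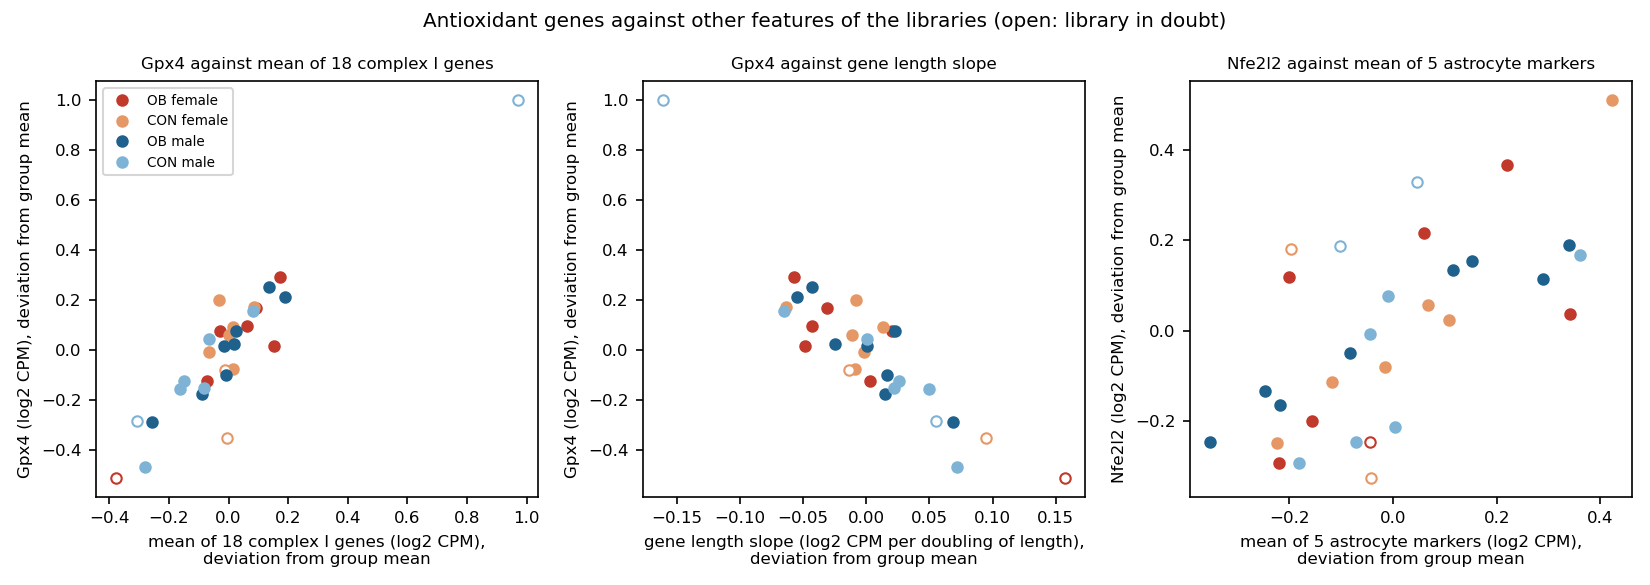
Deviations from group means in each library for Gpx4 against the mean of 18 complex I genes (left), Gpx4 against the gene length slope (middle) and Nfe2l2 against the mean of 5 astrocyte markers (right), with levels in log2 CPM and the slope in log2 CPM per doubling of gene length; colours are groups and open points the 5 libraries in doubt. Gpx4 climbs with complex I (r = 0.92) and descends with the slope (r = -0.90), with CON male 6 and OB female 3 at opposite ends, and Nfe2l2 climbs with astrocyte genes (r = 0.66).

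The genes whose levels were most like each member's were ranked by r over 31 libraries, with group means removed. The ranking covered the genes tested, but left out those without a symbol or with only a model, clone or numbered name, such as Gm or Rik. Gpx4 was closest to Uqcc2, an assembly factor of respiratory complex III, with r = 0.97 (0.92 over 26 libraries), followed by the ribosomal protein genes Rpl10a and Rpl38 with r = 0.96 for both. Gpx1 was closest to Fau, also a ribosomal protein gene, with r = 0.94 (0.91 over 26), then Rpl13, and then Gpx4 itself. Prdx5 was closest to Dynlrb1, a dynein light chain, Myl6, a myosin light chain, and Ndufa2, a complex I subunit, with r of 0.97, 0.96 and 0.96 (0.85, 0.88 and 0.88 over 26). Prdx1 was closest to Atp5j, an ATP synthase subunit, Rps15a and Naca, each with r = 0.94. Sod1 was closest to Nudc, Stmn1, a microtubule regulator of neurons, and Bex3, with r of 0.97, 0.97 and 0.96. Txn2 was closest to Gde1, Sdhb, a complex II subunit, and Cuta, with r of 0.92, 0.90 and 0.90. Prdx3 had looser partners in Tomm22, an import receptor of mitochondria, Tmem9b and Higd1a, at 0.81, 0.81 and 0.80, and these were 0.42, 0.57 and 0.51 over 26 libraries. Nfe2l2 was closest to Hadhb and Acadl, enzymes of mitochondrial fatty acid oxidation, and Clic4, with r of 0.80, 0.77 and 0.77 (0.78, 0.86 and 0.85 over 26). Cat was closest to Tpcn1, Acsf2 and Arhgef26, with r of 0.78, 0.77 and 0.74 (0.82, 0.74 and 0.72 over 26). Sod2 was closest to St13, Pik3ca and Prkcb, with r of 0.76, 0.74 and 0.74 (0.77, 0.61 and 0.66 over 26).

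Beside the members, 58 further genes of the pathway were followed, of which 55 were tested. Gpx2 and Gpx5 fell below the count filter. Nnt, the gene of the mitochondrial transhydrogenase, was not read because its symbol did not match exactly 1 gene of the counts table. None of the 55 passed in any of the 5 comparisons (edgeR, adjusted p). For maternal diet averaged over the sexes 42 of 55 lay below 0, against 52.5% of all genes, with a median of -0.062, and over 26 libraries 34 of 55 did, with a median of -0.017. Unadjusted p under 0.05 was reached by 6 of 55 genes in the lower direction and 1 in the higher one, against 6.37% and 3.87% of all genes.

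Sod3, the extracellular superoxide dismutase, was the pathway gene with the smallest p for the averaged diet effect. It had 5.73, 6.22 and 8.29 CPM as lowest, median and highest in OB females, against 6.504, 9.63 and 11.98 CPM in CON females. In males it had 4.20, 6.78 and 7.97 CPM in OB, against 5.56, 7.69 and 18.8 CPM in CON, where the highest value was again CON male 6. All 7 OB females and all 8 OB males lay below the mean of their CON group, and the groups overlapped. The CON male mean contains CON male 6, and over 26 libraries 6 of 6 OB females and 6 of 8 OB males lay below. The averaged difference was -0.48 ± 0.14 (unadjusted p = 0.00118, edgeR adjusted p = 0.464), with -0.52 ± 0.20 in females and -0.45 ± 0.19 in males. Over 26 libraries it was -0.37 ± 0.10 (unadjusted p = 0.0012, adjusted p = 0.599), with -0.52 ± 0.15 in females and -0.22 ± 0.14 in males. Next for the averaged effect were Gpx8, a peroxidase of the endoplasmic reticulum, at -0.37 ± 0.12 (unadjusted p = 0.00507; -0.33 over 26 libraries) and Txn1, the cytosolic thioredoxin, at -0.25 ± 0.10 (unadjusted p = 0.0252; -0.098 over 26).

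In females the next smallest p after Sod3 belonged to Mgst3, a microsomal glutathione transferase, at -0.50 ± 0.23 (unadjusted p = 0.0378), and Msra, a methionine sulfoxide reductase, at -0.43 ± 0.21 (unadjusted p = 0.0471). CON female 5 had 140.2 CPM of Mgst3 and 49.96 CPM of Msra, against CON female medians of 42.7 and 14.6 CPM. Over the 26 libraries, which lack CON female 5 among others, the differences were -0.11 and -0.098. Leaving out CON female 5 alone was not tested. In males Gpx8 stood at -0.41 ± 0.17 (unadjusted p = 0.0219; -0.28 over 26 libraries) and Msrb1, another methionine sulfoxide reductase, at -0.38 ± 0.17 (unadjusted p = 0.0353; -0.11 over 26 libraries). For the interaction the smallest p belonged to Txnip, an inhibitor of thioredoxin, at 0.62 ± 0.23 (unadjusted p = 0.0102, edgeR adjusted p = 0.9996). It was 0.34 ± 0.20 over 26 libraries. Txnip had a median of 56.1 CPM in OB females, against 52.7 CPM in CON females, and of 43.3 CPM in OB males, against 55.3 CPM in CON males. Msrb3 and Msra followed at -0.56 ± 0.23 (unadjusted p = 0.0232) and -0.57 ± 0.29 (unadjusted p = 0.0584), and at -0.48 and -0.17 over 26 libraries. For females minus males the smallest p belonged to Mafg, a small Maf protein that pairs with Nrf2, at 0.13 ± 0.049 (unadjusted p = 0.0136; 0.13 over 26), to Gpx6, read at 0.65 CPM or less in every OB female, at -1.03 ± 0.42 (unadjusted p = 0.0198; -0.84 over 26), and to Txn1 at -0.24 ± 0.10 (unadjusted p = 0.0304; -0.076 over 26), each with an edgeR adjusted p of 0.952.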

How the data were processed

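Hypothalamus RNA was sequenced in 31 libraries. Per the file headers, the authors counted read pairs per gene with featureCounts 1.6.2 (Ensembl release 94, minimum mapping quality 10, reverse strand); the submitters' processing notes name TopHat2 2.0.13, FastQC, Subread, edgeR and mm10. The deposited values are raw counts for 54532 genes, 54409 with a symbol, and no column was left unused. Libraries were grouped by the labelled maternal diet and sex. edgeR 4.0.16 (R 4.3.3; low-count filter, TMM scaling, robust quasi-likelihood test, 1 mean per group over 31 libraries) tested 18743 genes, with Benjamini-Hochberg adjustment over all of them; the same steps were tested on simulated data with known changes. CPM here is after TMM scaling, and FPKM divides by merged exon length.

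Covariation used log2 CPM (prior count 2) as deviations from group means, with 100000 two-sided permutations within groups. Alternatives were DESeq2 1.42.0, RLE scaling, no count filter, 2 surrogate variables (sva 3.50.0), a gene length trend removed (spline, 4 degrees of freedom), another prior count, and leaving out 2 or 5 libraries. The 5 are 3 whose correlation with the others lay over 3 median absolute deviations low and 2 that went against their sex label. No pair of libraries of the same group agreed within counting noise. The closest such pair gave a chi-square per degree of freedom of 10.9. Pairs across groups were not compared.

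Members and lists were chosen with earlier results of these data known. The text names all 10 members; of the pathway list every gene past the adjusted threshold and the 3 of smallest p per comparison; the 5 highest and 3 lowest pairs by r over 31 libraries; and the 3 genes most like each member. Further pairs and relations were named after their values were seen. Copies are other genes with at least 90% identity over 400 bases. Of the members Nfe2l2 drew the fewest pairs, so counting limits its precision most.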

Additional observations from a re-analysis of the deposited data

Results flagged for a closer look

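Of 40 sets of values (10 members in 4 groups), 9 held a library whose distance from its nearest neighbour took up an unusually large part of the range of its group; chance alone flags about 1 in 20 such sets. The library CON male 6 accounted for 7 of the 9. It was the highest of the CON males for Sod1 at 689 CPM, Gpx1 at 203 CPM, Gpx4 at 607 CPM, Prdx1 at 510.1 CPM, Prdx3 at 117 CPM, Prdx5 at 439.6 CPM and Txn2 at 185 CPM. The others both concerned Txn2, at 88.8 CPM in OB female 3, the lowest of its group, and at 166 CPM in CON female 5, the highest of its group. All 3 libraries are among the 5 left out in the values over 26 libraries.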

How the results depend on the processing

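No paired analysis was possible because the labels give no replicate numbers shared between groups. In 455 alternative fold changes of members and named pathway genes, 0 passed the adjusted threshold (smallest adjusted p 0.284), 416 kept their direction and 39 did not; the cause was not tested. With DESeq2 the genes called numbered 6 in females, 1 in males, 5 averaged, 6 for the interaction and 15 for sex (edgeR 0, 0, 0, 0 and 5). The sex count was 1 with no filter, 8 with 2 surrogate variables, 13 without the 2 libraries against their label, 19 without the 5 libraries and 8 with the length trend removed. The median r over the 45 pairs was 0.26 without the 5 libraries, against 0.43.

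With 2 surrogate variables the sign turned in females for Sod1 (0.032), Cat (-0.029), Nfe2l2 (0.035) and Mgst3 (0.016). It turned in males for Sod1 (0.018), Prdx1 (0.013), Prdx3 (0.019) and Txn2 (0.0048), and averaged for Sod1 (0.025), Sod2 (0.017) and Cat (-0.012). It turned for the interaction of Cat (-0.033), Gpx4 (-0.079), Prdx1 (-0.084) and Prdx5 (-0.067), and for sex of Gpx1 (0.0025). Without the 5 libraries it turned in females for Cat (-0.021) and Nfe2l2 (0.0067), in males for Prdx1 (0.00090), Prdx3 (0.023) and Nfe2l2 (0.015), and averaged for Sod2 (0.0055), Cat (-0.0038) and Nfe2l2 (0.011). It also turned for the interaction of Sod1 (-0.060), Cat (-0.034), Gpx1 (-0.013), Gpx4 (-0.11), Prdx1 (-0.13), Prdx5 (-0.095) and Nfe2l2 (-0.0086), for sex of Gpx1 (0.023), Prdx3 (0.0084) and Txn2 (0.0025), and for the r of Cat with Prdx5 (0.041). With the length trend removed it turned for Nfe2l2 in females (0.0063), Sod2 in males (-0.11) and Prdx3 by sex (0.043). Without the 2 libraries against their label it turned for the interaction of Cat (-0.0050) and Nfe2l2 (-0.029). The r of Cat with Txn2 had an adjusted p of 0.0505 under RLE scaling, and that of Cat with Prdx5 was -0.40 (adjusted p = 0.0172, permutation) with the length trend removed.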
